A study of Homo sapiens with 16 samples.

Results

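A set of 36 genes, of 23354 in the count table, was near silent in vehicle-treated myeloma cells and carried measurable mRNA after TAK-981. The genes were chosen by their own values. A gene entered when its mean level was under 0.4 CPM (counts per 1000000 counts of its library) over the 4 vehicle libraries and at least 1.2 CPM over the 4 TAK-981 libraries. Of the 23354 genes, 9998 lay under the first limit, and 45 passed both. From these, 9 were left out by symbol, RSAD2 by name and IFI27, IFI44L, IFIT2, OASL, ZNF300, ZNF396, ZNF442 and ZNF585B as members of interferon-induced or zinc finger families. The vehicle and TAK-981 values below are therefore a description with no test, and only the libraries with Dex and with the combination, which played no part in the choice, were tested.

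Total RNA depleted of ribosomal RNA was sequenced from MM1S and MM1R, human multiple myeloma cell lines. MM1S is sensitive to the glucocorticoid dexamethasone (Dex), and MM1R is a Dex resistant line for which MM1S is the parental counterpart, so each state is represented by a single line. Treatment lasted 48 h. The control group received vehicle (Veh), the TAK group TAK-981 at 0.1 μM, the Dex group 1 μM of the glucocorticoid, and the combo group both agents at these doses. There were 2 libraries in each of the 8 groups, 16 in all. Nothing in the labels says that the 2 libraries of a group came from separate cultures, so the p-values below measure only the spread between these libraries, which may be technical.

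TAK-981 inhibits the enzyme that activates SUMO (small ubiquitin-like modifier) before SUMO is attached to other proteins. Many SUMO targets are transcription factors and chromatin-bound repressors, and SUMO attachment is widely known for its part in keeping genes and endogenous retroviruses silent and in holding back the interferon response. Dex acts through the glucocorticoid receptor, a transcription factor that moves to the nucleus when the hormone binds. Myeloma is a cancer of plasma cells, the antibody-secreting end stage of the B lineage.

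Total counts ran from 15707587 to 24796539 per library (median 20268927). At these depths 0.4 CPM equals 7.6 to 9.92 counts in a Veh library, and 3 counts, the most that a count of 0 allows, equal 0.121 to 0.191 CPM. These limits cover counting error only. Plasma cell markers summed to between 3770 and 6540 CPM in every library. Markers of T and NK cells summed to 21.2 to 45.6 CPM with CD3D and NKG7 at 0 throughout, and those of monocytes and granulocytes to 1.79 to 15.6 CPM with FCN1, S100A8, S100A12, ELANE and FCGR3B at 0. B cell markers summed to 72.8 to 99.2 CPM. Epithelial markers reached 2.9 CPM at most with KRT14 at 0, markers of fibroblasts and endothelium 14.7 CPM with COL3A1, LUM and CDH5 at 0, and neuronal markers 21.0 CPM with NEFM at 0. Some markers in these lists were expressed, with group means of up to 29.8 CPM for TRAT1, 12.1 for NCAM1 and 9.85 for S100A9. The highest group means were 73.6 CPM for CR2, 34.3 for CD79B, 12.3 for PECAM1 and 17.5 for MAP2. In bulk RNA, more cells carrying a transcript and more of it per cell cannot be told apart.

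Summed over the 36 genes, the level was 6.26 to 8.95 CPM in the Veh libraries and 124 to 151 CPM in the TAK libraries, as the choice of genes fixes. In the libraries that played no part in the choice, the sum was 7.73 to 21.9 CPM in Dex and 102 to 142 CPM in combo. The MM1S Dex libraries, at 21.9 and 19.9 CPM, lay above the MM1R Dex libraries, at 9.32 and 7.73 CPM. CXCL13 alone accounted for 9.16 and 9.15 CPM of the MM1S Dex sums. The plot of single libraries shows that the genes were not raised evenly, since LCN1, PAEP, LGALS9, GPR158 and CNR2 carried their TAK level mainly in MM1R.

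**Figure D1:**
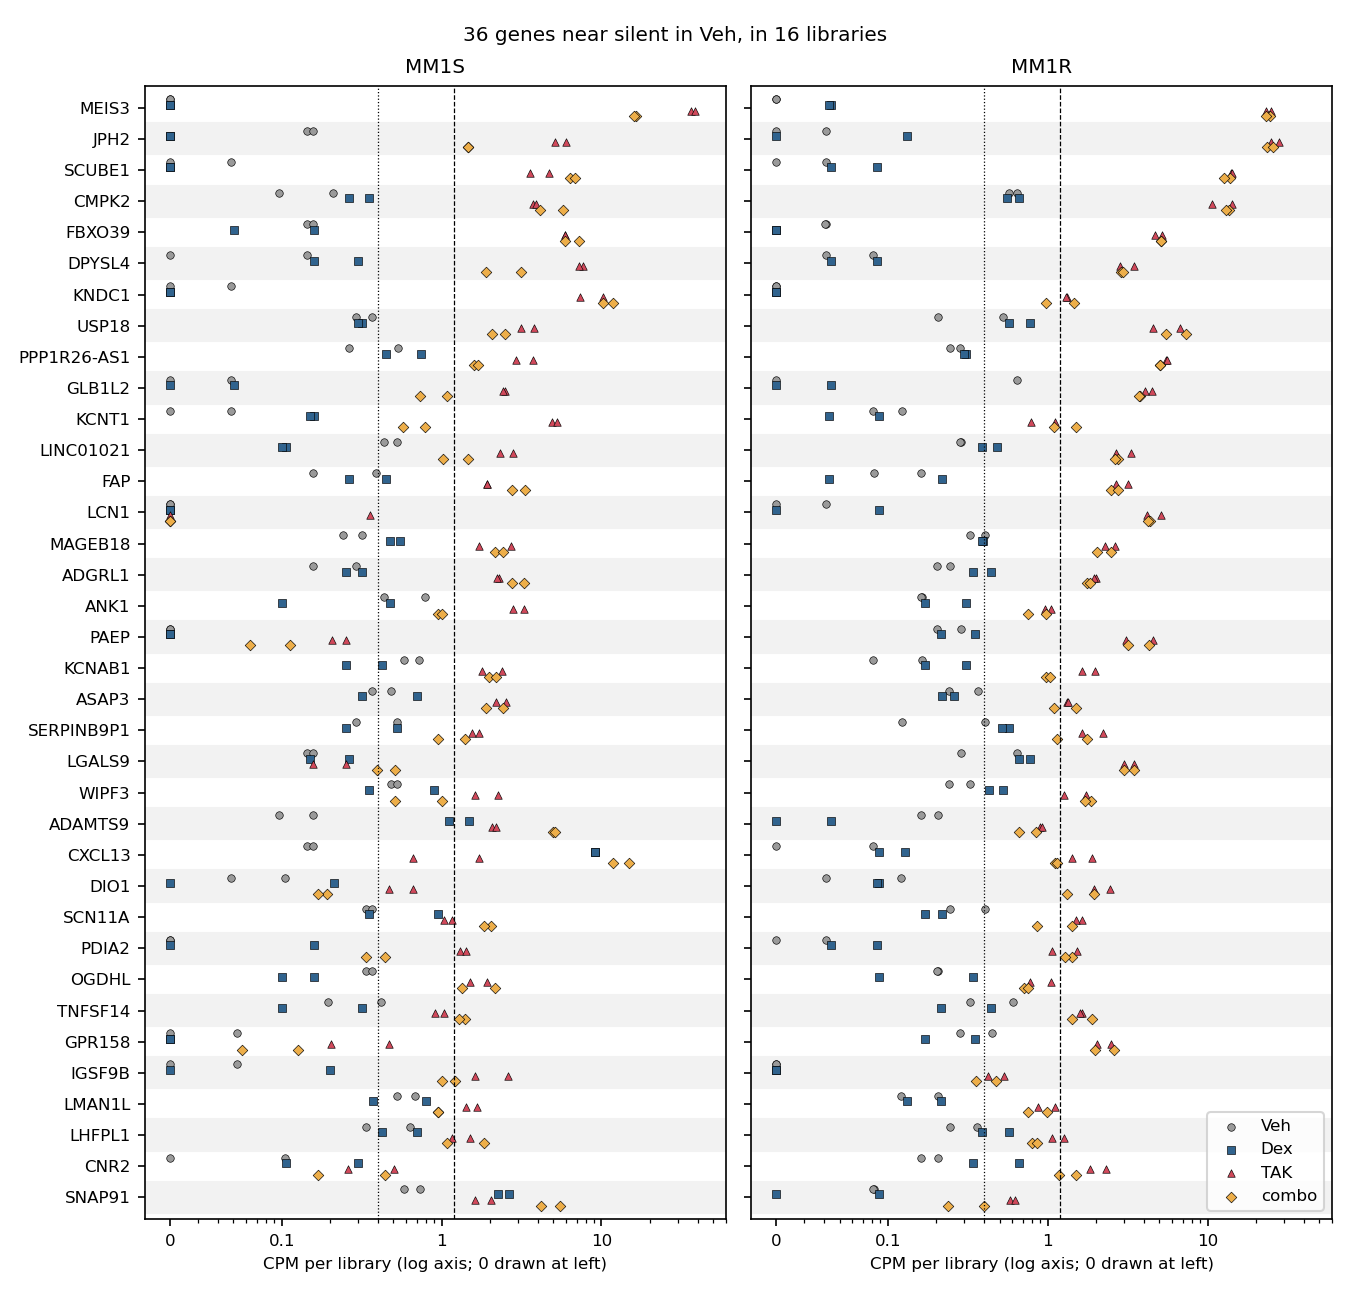
Level of the 36 genes in every library, in CPM on a log axis with 0 drawn at the left edge, for MM1S (left) and MM1R (right); genes are ordered by mean CPM in TAK, which is not corrected for length. Each point is 1 library, coloured by treatment. The dotted line is the Veh limit of 0.4 CPM and the dashed line the TAK limit of 1.2 CPM. In MM1R the combo points lie by the TAK points and the Dex points by the Veh points, while in MM1S several genes, KCNT1 and CXCL13 among them, break this order.

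The first comparison asked whether the genes were also higher with TAK-981 in Dex-treated cells. In MM1S, 28 of the 36 genes were higher in combo than in Dex and 0 were lower (edgeR's quasi-likelihood test, Benjamini-Hochberg adjusted p under 0.05 over 19182 genes tested). Of all genes tested, 16.6% were called higher and 19.3% lower in this comparison, and of the 5792 other genes under 0.4 CPM in Veh, 4.30% were called higher. In MM1R, 35 of the 36 were higher and 0 lower, against 17.4% higher and 19.4% lower among all genes and 4.63% higher among the other near-silent genes. At an unadjusted p under 0.05, edgeR also gave 0 lower in each line, as did DESeq2 after adjustment. No filter on low counts was used, so every one of the 36 was tested in both lines. The median log2 fold change of the 36 was 2.40 in MM1S and 3.28 in MM1R, against 0.01 and 0.029 over all genes. With genes at 0 in Dex set to the bound that 3 counts give, the medians were 2.21 in MM1S, over the 33 genes with a fold (LCN1, PAEP and GPR158 had 3 counts or fewer in both groups), and 3.18 in MM1R over all 36.

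Both combo libraries lay above both Dex libraries for 32 of the 36 genes in MM1S, against 32.5% of all genes. The 4 that overlapped were LCN1, WIPF3, DIO1 and CNR2. In MM1R the 2 treatments were separate for all 36, against 32.7% of all genes. In all, 27 genes were called higher in both lines. LHFPL1 passed the threshold in MM1S alone, and LCN1, PAEP, LGALS9, WIPF3, DIO1, GPR158, LMAN1L and CNR2 in MM1R alone.

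The limits of the rule were then applied to the Dex and combo libraries in place of Veh and TAK. Of the 36 genes, 24 were under 0.4 CPM in Dex and 27 were at or above 1.2 CPM in combo. The same exclusions left 29 genes past both limits, and 16 of them were among the 36, which is 44.4% of the 36 and 55.2% of the 29.

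**Figure D2:**
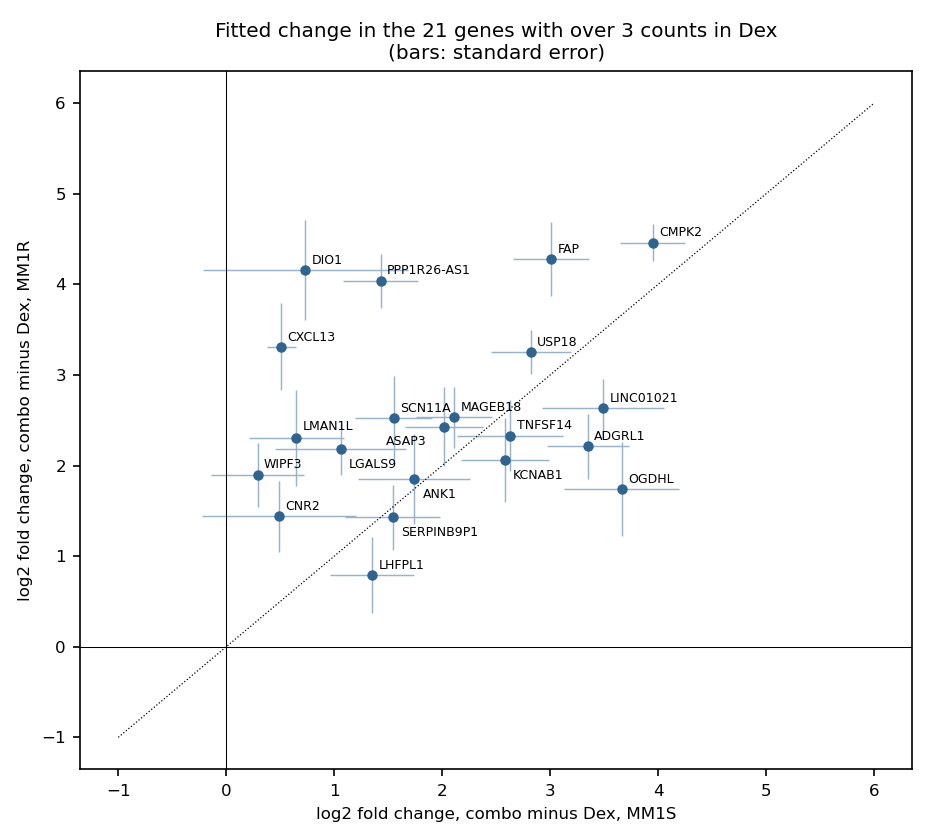
Fitted log2 fold change of combo minus Dex in MM1S (horizontal) and MM1R (vertical) for the 21 genes with more than 3 counts in each line's Dex group; bars are standard errors and the dotted line marks equal change. All 21 points lie above 0 on both axes. PPP1R26-AS1 (1.43 and 4.04) and CXCL13 (0.51 and 3.31) stand farthest above the line among genes whose difference between the lines was called.

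MEIS3, a homeobox transcription factor of the TALE class, was the clearest switch. It had no count in any Veh library and stood at 36.5 and 38.2 CPM in the MM1S TAK libraries and at 23.2 and 25.1 CPM in the MM1R TAK libraries. In MM1S it had no count in either Dex library and was at 16.5 and 15.9 CPM in combo, at least 209-fold higher when the floor of 3 counts over both Dex libraries is used. Its MM1R level was 0.044 and 0.0429 CPM in Dex, 2 counts in all, and 24.6 and 23.1 CPM in combo, a ratio of 550 (95% counting interval 152 to 4540). The groups with and without TAK-981 were far apart in both lines. Its combo level was higher in MM1R than in MM1S by 0.62 on the log2 scale (standard error 0.113, adjusted p = 2.13e-07).

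The other regulators and adaptors were higher in combo than in Dex in MM1R without exception, and WIPF3 alone missed the threshold in MM1S. Of the whole 36, 35 were higher in MM1R and 28 in MM1S, and of all genes 17.4% and 16.6%. FBXO39, an F-box protein of the kind that selects targets for ubiquitin ligases, was at 0.159 and 0.0503 CPM in MM1S Dex and 7.26 and 5.9 CPM in MM1S combo (log2 fold change 5.87, standard error 0.366, adjusted p = 1.07e-55). In MM1R it had no count in Dex and was at 5.14 and 5.12 CPM in combo, at least 78.7-fold higher. The difference in its combo level between the lines did not pass the threshold (-0.29, standard error 0.173, adjusted p = 0.179).

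ASAP3, which switches off small G proteins of the Arf family, was higher by 2.02 (standard error 0.362, adjusted p = 2.27e-07) in MM1S and 2.43 (standard error 0.431, adjusted p = 1.48e-07) in MM1R. ANK1, an ankyrin that ties the membrane to the spectrin skeleton, was at 0.477 and 0.101 CPM in MM1S Dex and 0.955 and 1.01 CPM in combo. This call rested on single libraries. The log2 fold change was 1.74 (adjusted p = 0.003) with all libraries, 1.02 (adjusted p = 0.179) without the second Dex library, 3.17 without the first, and 1.70 (adjusted p = 0.0547) without the second combo library. WIPF3, a partner of actin-regulating WASP proteins, was at 0.9 and 0.352 CPM in MM1S Dex and 0.509 and 1.01 CPM in MM1S combo, so its MM1S libraries overlapped (0.29, standard error 0.433, adjusted p = 0.667). The MM1R libraries held it at 0.528 and 0.429 CPM in Dex and 1.86 and 1.71 CPM in combo (1.90, standard error 0.353, adjusted p = 5.64e-07).

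Of the 7 genes for channels, membrane receptors and their partners, 5 were higher in MM1S and 7 in MM1R, against 28 and 35 of the whole 36 and 16.6% and 17.4% of all genes. JPH2 encodes junctophilin 2, which holds the endoplasmic reticulum close to the plasma membrane in muscle. It was at 5.15 and 6.04 CPM in MM1S TAK and at 25.1 and 28 CPM in MM1R TAK. In combo it was at 1.46 CPM in each MM1S library and at 23.7 and 25.5 CPM in MM1R. With no count in MM1S Dex, the MM1S combo level was at least 18.9-fold higher. In MM1R, 3 counts in Dex gave a ratio of 377 (95% counting interval 129 to 1830). The MM1R combo level exceeded the MM1S level by 4.13 on the log2 scale (standard error 0.173, adjusted p = 3.31e-123), the widest gap in that direction among the 36 apart from LCN1, PAEP and GPR158, which had 3 counts or fewer in MM1S combo.

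KCNT1, a potassium channel opened by sodium, set the lines apart in another way. It was at 4.94 and 5.28 CPM in MM1S TAK but only 0.573 and 0.787 CPM in MM1S combo, against 0.159 and 0.151 CPM in MM1S Dex (log2 fold change 2.07, standard error 0.64, adjusted p = 0.00468; 1.82, adjusted p = 0.0759, without the second combo library). In MM1R it was at 0.79 and 1.11 CPM in TAK and 1.51 and 1.09 CPM in combo, with 0.088 and 0.0429 CPM in Dex. Its TAK level was therefore the higher one in MM1S and its combo level the higher one in MM1R (0.98, standard error 0.404, adjusted p = 0.0355, a call lost under DESeq2).

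KCNAB1, a regulatory subunit of voltage-gated potassium channels, was higher in combo by 2.58 (standard error 0.405) in MM1S and 2.06 (standard error 0.461) in MM1R. ADGRL1, the adhesion receptor latrophilin 1, was at 0.318 and 0.251 CPM in MM1S Dex and 2.74 and 3.26 CPM in combo. Its MM1R values were 0.44 and 0.343 CPM in Dex and 1.77 and 1.85 CPM in combo. The lines gave similar pictures for both genes, although each was lower in MM1R combo than in MM1S combo, KCNAB1 by a log2 fold change of -0.98 (adjusted p = 0.00532) and ADGRL1 by -0.67 (adjusted p = 0.0223). DESeq2 lost both of these calls. SCN11A, a sodium channel subunit of pain-sensing neurons, and the receptor GPR158 are named here after their values were seen. SCN11A was higher by 1.55 (adjusted p = 7.71e-05) in MM1S, which became 2.39 without the first and 1.01 without the second Dex library, and by 2.52 (adjusted p = 4.79e-07) in MM1R. GPR158 had 3 counts in MM1S combo and 0 in MM1S Dex, too few for a fold, and stood at 1.99 and 2.61 CPM in MM1R combo against 0.352 and 0.172 CPM in MM1R Dex.

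CNR2, the cannabinoid receptor of immune cells, was at 0.106 and 0.302 CPM in MM1S Dex and 0.446 and 0.169 CPM in MM1S combo, which overlapped. Its MM1R level was 0.66 and 0.343 CPM in Dex and 1.51 and 1.18 CPM in combo (1.44, standard error 0.389, adjusted p = 0.000971). This call was lost without the first combo library (1.25, adjusted p = 0.0603) and without the second Dex library (1.06, adjusted p = 0.0649).

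The 4 genes known chiefly from neurons were higher in combo than in Dex in both lines. In combo 0 of the 4 were higher and 3 lower in MM1R than in MM1S, where 22.5% of all genes were higher and 21.4% lower. The IGSF9B call among these was lost under DESeq2. KNDC1, an exchange factor for Ras, had no count in Dex in either line. It was at 11.8 and 10.2 CPM in MM1S combo (at least 142-fold higher than Dex) and at 0.974 and 1.47 CPM in MM1R combo (at least 18.6-fold higher). The TAK libraries showed the same order, with 7.39 and 10.2 CPM in MM1S and 1.32 and 1.31 CPM in MM1R. In combo KNDC1 was lower in MM1R by a log2 fold change of -3.11 (standard error 0.206, adjusted p = 1.42e-49).

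DPYSL4, a member of the collapsin response mediator family, was at 7.65 and 7.25 CPM in MM1S TAK and at 1.91 and 3.15 CPM in MM1S combo, against 0.159 and 0.302 CPM in Dex (3.39, standard error 0.401, adjusted p = 5.4e-16). The MM1R libraries held it at 2.88 and 2.94 CPM in combo and had 3 counts in Dex, a ratio of 44.6 (95% counting interval 14.9 to 219). SNAP91, which helps clathrin coat synaptic vesicles, was not silent in every control group. It was at 0.581 and 0.737 CPM in MM1S Veh and at 2.65 and 2.26 CPM in MM1S Dex, and reached 5.48 and 4.21 CPM in MM1S combo (0.94, standard error 0.219, adjusted p = 9.55e-05; 0.75, adjusted p = 0.0619, without the first combo library). In MM1R it was at 0.088 and 0 CPM in Dex and 0.399 and 0.237 CPM in combo, a ratio of 7.38 from 14 and 2 counts (95% counting interval 1.69 to 66.9). The edgeR call in MM1R (adjusted p = 0.00371) was lost without the first combo library (adjusted p = 0.116) or the second Dex library (adjusted p = 0.132). IGSF9B, a synaptic adhesion protein named here after its values were seen, was at 1.21 and 1.01 CPM in MM1S combo against 0 and 0.201 CPM in Dex (3.31, adjusted p = 4.17e-06), where the second Dex library held every Dex count, so no fold is given without it. It was at 0.354 and 0.474 CPM in MM1R combo with no count in Dex.

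Of the 7 genes for secreted and cell-surface proteins, 5 were higher in MM1S and 7 in MM1R, the same counts as for the channels and receptors, beside 16.6% and 17.4% of all genes. SCUBE1, a secreted protein with EGF-like repeats, was at 6.37 and 6.86 CPM in MM1S combo with no count in Dex, at least 85.6-fold higher. Its MM1R level was 13.8 and 12.6 CPM in combo with 3 counts in Dex, a ratio of 203 (95% counting interval 69.3 to 989). FAP, a membrane serine protease best known from activated fibroblasts, was at 0.265 and 0.452 CPM in MM1S Dex and 3.31 and 2.75 CPM in combo (3.01, standard error 0.352, adjusted p = 2.65e-16). The MM1R libraries held it at 0.22 and 0.0429 CPM in Dex and 2.48 and 2.75 CPM in combo (4.28, standard error 0.41, adjusted p = 8.62e-24). Its combo levels did not differ between the lines past the threshold (-0.15, standard error 0.235, adjusted p = 0.669). TNFSF14, the TNF family ligand LIGHT, was named after its values were seen and was higher by 2.63 (standard error 0.491, adjusted p = 6.59e-07) in MM1S and 2.33 (standard error 0.391, adjusted p = 2.31e-08) in MM1R.

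LCN1 and PAEP, both small secreted carriers of the lipocalin family and neighbours on chromosome 9, carried their counts mainly in MM1R. LCN1, tear lipocalin, was at 4.16 and 5.13 CPM in MM1R TAK and at 4.39 and 4.26 CPM in MM1R combo, against 2 counts in MM1R Dex (ratio 99.6, 95% counting interval 27.2 to 828). In MM1S the TAK libraries held 0 and 0.355 CPM, and the combo and Dex libraries no count at all. PAEP, glycodelin, was at 3.11 and 4.55 CPM in MM1R TAK and at 3.19 and 4.31 CPM in MM1R combo against 0.352 and 0.215 CPM in MM1R Dex (3.71, standard error 0.34, adjusted p = 5.22e-26). In MM1S it was at 0.208 and 0.254 CPM in TAK and had 3 counts in combo. Taken per kilobase of transcript, the scale on which genes can be ranked, LCN1 was the highest of the 36 in MM1R combo at 5.53 CPM per kb, with MEIS3 at 5.34 and JPH2 at 4.15.

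CXCL13, SNAP91 and ADAMTS9 were the genes whose MM1S mean with Dex alone was above 1.2 CPM, the limit set for TAK. CXCL13, the chemokine that draws B cells to follicles, was at 0.145 and 0.158 CPM in MM1S Veh and at 1.72 and 0.659 CPM in MM1S TAK. It was at 9.16 and 9.15 CPM in MM1S Dex and at 14.9 and 11.8 CPM in MM1S combo. The 2 MM1S combo libraries were thus above every other library, and the increase over Dex was small (0.51, standard error 0.136, adjusted p = 0.000874) and was lost without the first combo library (0.33, adjusted p = 0.151). In MM1R, CXCL13 was at 0.088 and 0.129 CPM in Dex and at 1.11 and 1.14 CPM in combo (3.31, standard error 0.478, adjusted p = 3.35e-10). The change differed between the lines by 2.80 (standard error 0.517, adjusted p = 3.81e-06).

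ADAMTS9, a secreted protease of the extracellular matrix, was also above its Veh level in MM1S Dex, but below its TAK level. It was at 0.0969 and 0.158 CPM in MM1S Veh, 2.08 and 2.18 CPM in MM1S TAK, 1.48 and 1.11 CPM in MM1S Dex and 4.97 and 5.11 CPM in MM1S combo (combo minus Dex 1.93, standard error 0.247, adjusted p = 9.6e-14). In MM1R it had 1 count in Dex and was at 0.842 and 0.663 CPM in combo, a ratio of 34.8 (95% counting interval 5.82 to 1410). In Dex, both genes were lower in MM1R than in MM1S, CXCL13 by a log2 fold change of -6.30 (adjusted p = 1.97e-93) and ADAMTS9 with 1 count in the 2 MM1R libraries. In combo both genes were again lower in MM1R, with a log2 fold change of -3.50 (standard error 0.189) for CXCL13 and -2.67 (standard error 0.266) for ADAMTS9.

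The 3 interferon-linked genes were higher in MM1R combo than in MM1S combo, as were 17 of the 36 and 22.5% of all genes. CMPK2, a mitochondrial nucleotide kinase induced by interferon, was at 0.265 and 0.352 CPM in MM1S Dex and 4.14 and 5.73 CPM in combo (3.95, standard error 0.301, adjusted p = 2.68e-37). In MM1R it was at 0.66 and 0.558 CPM in Dex and 13.6 and 13.1 CPM in combo (4.46, standard error 0.207, adjusted p = 3.18e-100). USP18, which removes the ubiquitin-like protein ISG15 and damps interferon receptor signalling, was higher by 2.82 (standard error 0.368) in MM1S and 3.25 (standard error 0.24) in MM1R. LGALS9, the secreted lectin galectin-9, passed the threshold in MM1R alone, but the line difference in its change was not called (1.11, standard error 0.736, adjusted p = 0.453). In Dex, LGALS9 was already higher in MM1R than in MM1S, by 1.78 (adjusted p = 0.00174). It was at 0.509 and 0.393 CPM in MM1S combo against 0.265 and 0.151 CPM in Dex (1.06, standard error 0.608, adjusted p = 0.177), and at 3.01 and 3.46 CPM in MM1R combo against 0.66 and 0.773 CPM in Dex (2.18, standard error 0.287, adjusted p = 5.2e-13). USP18 and LGALS9 have close copies elsewhere in the genome, as do LCN1 and the pseudogene SERPINB9P1, so the assignment of their reads is uncertain.

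Of the 4 genes for enzymes, GLB1L2, a relative of lysosomal beta-galactosidase, was at 1.08 and 0.73 CPM in MM1S combo with 1 count in Dex (ratio 34.7, 95% counting interval 5.77 to 1420). Its MM1R level was 3.76 and 3.74 CPM in combo with 1 count in Dex (ratio 173, 95% counting interval 30.6 to 6870). Of the MM1R Veh libraries, 1 held 0.645 CPM of it and the other none. DIO1, the deiodinase that activates thyroid hormone, was at 0.191 and 0.169 CPM in MM1S combo, between the Dex libraries at 0.212 and 0 CPM. The MM1R libraries held it at 1.95 and 1.33 CPM in combo against 0.088 and 0.0858 CPM in Dex (4.16, standard error 0.551, adjusted p = 7.01e-13). OGDHL, a relative of the oxoglutarate dehydrogenase of the citric acid cycle, was higher by 3.66 (standard error 0.532, adjusted p = 8.11e-11) in MM1S and 1.74 (standard error 0.52, adjusted p = 0.00321) in MM1R, where it became 1.08 (adjusted p = 0.153) without the first Dex library and 3.0 without the second.

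PDIA2, a disulfide isomerase of the endoplasmic reticulum named after its values were seen, lies across LUC7L on the opposite strand. LUC7L stood at 55.3 to 79.1 CPM over the 4 treatments, and the sources used here do not say whether the counting used strand, so their reads may not be separable. PDIA2 was at 0.446 and 0.337 CPM in MM1S combo from 13 counts against 3 counts in Dex (ratio 5.01, 95% counting interval 1.38 to 27.4). Its edgeR call in MM1S (adjusted p = 0.0304) was lost without either combo library (adjusted p = 0.165 and 0.0717) and without the second Dex library (adjusted p = 0.348). All 3 Dex counts came from the first Dex library, without which no fold is given. In MM1R it had 59 counts in combo and 3 in Dex (ratio 20.7, 95% counting interval 6.75 to 103).

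Among the 3 non-coding transcripts, PPP1R26-AS1, which runs antisense beside PPP1R26 on chromosome 9, was at 0.742 and 0.452 CPM in MM1S Dex and 1.59 and 1.69 CPM in MM1S combo (1.43, standard error 0.347, adjusted p = 0.000216). In MM1R it was at 0.308 and 0.3 CPM in Dex and 5.05 and 5.07 CPM in combo (4.04, standard error 0.298, adjusted p = 5.37e-40). The increase was greater in MM1R by 2.62 (standard error 0.528, adjusted p = 2.42e-05). The long non-coding RNA LINC01021 was higher by 3.49 (standard error 0.563) in MM1S and 2.63 (standard error 0.328) in MM1R. SERPINB9P1 was higher by 1.54 (adjusted p = 0.00194) in MM1S, a call lost without the first combo library (1.26, adjusted p = 0.104) or the second Dex library (1.11, adjusted p = 0.0955), and by 1.43 (adjusted p = 0.000314) in MM1R, lost without the first combo library (1.07, adjusted p = 0.0889).

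MAGEB18, of the MAGE family that is otherwise expressed mainly in testis, was at 0.477 and 0.553 CPM in MM1S Dex and 2.16 and 2.42 CPM in combo (2.11, standard error 0.349, adjusted p = 1.54e-08). Its MM1R level was 0.396 and 0.386 CPM in Dex and 2.48 and 2.04 CPM in combo (2.53, standard error 0.341, adjusted p = 1.92e-12). LMAN1L, a lectin related to a cargo receptor of the secretory pathway, overlaps CPLX3 on the same strand, which stood at 0.379 CPM in Dex and 0.947 CPM in combo. LMAN1L was at 0.371 and 0.804 CPM in MM1S Dex and 0.955 CPM in each combo library (0.65, adjusted p = 0.272), and was higher by 2.30 (adjusted p = 7.96e-05) in MM1R. LHFPL1 was higher by 1.35 (adjusted p = 0.00226) in MM1S, lost without the second combo library (0.89, adjusted p = 0.21) or the first Dex library (1.02, adjusted p = 0.0662), and its MM1R difference of 0.79 did not pass (adjusted p = 0.132).

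The second comparison set the lines against each other. In combo, 17 of the 36 genes were higher and 8 lower in MM1R than in MM1S, where 22.5% of all genes were called higher and 21.4% lower. The 8 were KNDC1, ADGRL1, KCNAB1, ADAMTS9, CXCL13, OGDHL, IGSF9B and SNAP91. In Dex, 5 were higher in MM1R (USP18, LINC01021, PAEP, LGALS9 and GPR158) and 6 lower (FBXO39, ADAMTS9, CXCL13, SCN11A, LMAN1L and SNAP91), against 21.7% and 22.0% of all genes. Under DESeq2 the Dex calls of FBXO39, USP18, SCN11A and LMAN1L were lost. FBXO39 had 4 counts in MM1S Dex and 0 in MM1R Dex, and PAEP and GPR158 had no count in MM1S Dex. The difference between the lines in the log2 fold change from Dex to combo was called for 4 genes, PPP1R26-AS1, WIPF3, ADAMTS9 and CXCL13. All 4 had the larger log2 fold change in MM1R. Of all genes, 7.50% were called in that direction and 3.44% in the other. By edgeR, 0 of the 36 were called in the other direction, and 1 (OGDHL) was at an unadjusted p under 0.05. DESeq2 also called 0, but gave no adjusted p for 23 of the 36, OGDHL and WIPF3 among them. The share of the 36 called in this test was near the background. For WIPF3 the difference was 1.61 (standard error 0.572, adjusted p = 0.0452), with an adjusted p between 0.0106 and 0.608 under the alternatives, and a value of 0.83 without the first MM1S Dex library.

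**Figure D3:**
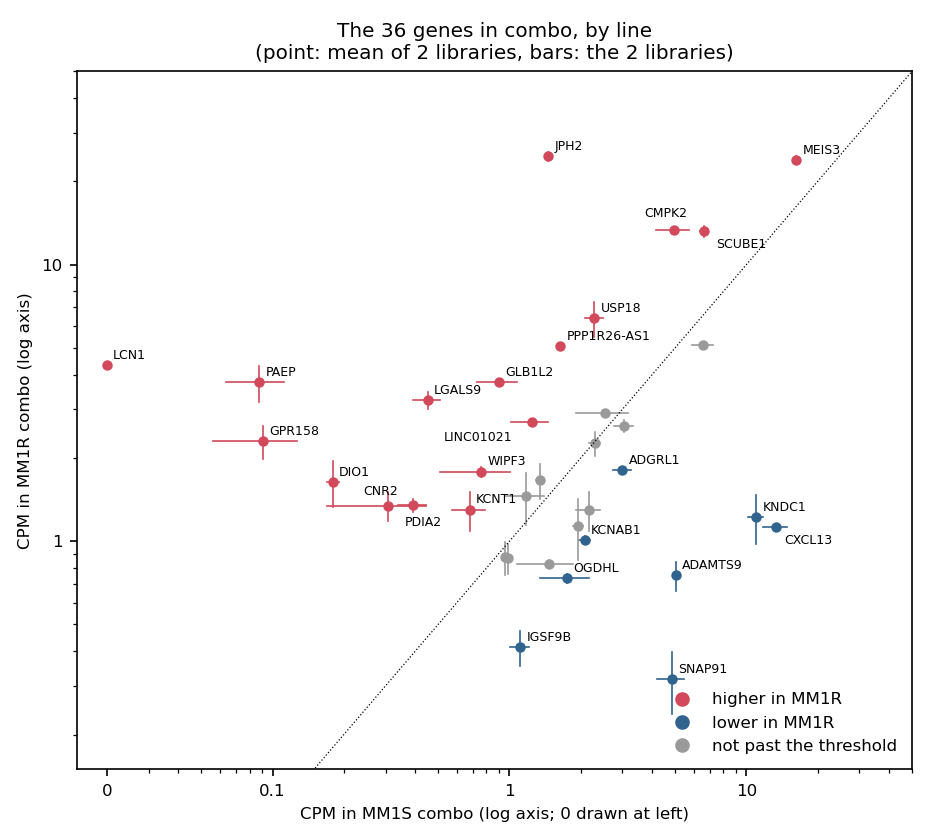
Level of the 36 genes in combo in MM1S (horizontal) and MM1R (vertical), in CPM on log axes with 0 drawn at the left edge. Points are means of 2 libraries, bars join the 2 libraries, and the dotted line marks equal level. Colour gives the edgeR call, with 17 genes higher and 8 lower in MM1R. LCN1, PAEP and GPR158 lie at the left with 3 counts or fewer in MM1S, and CXCL13, KNDC1, ADAMTS9 and SNAP91 lie farthest below the line.

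With Dex added to TAK-981, the levels lay close to those of TAK in MM1R and were more widely spread in MM1S. This is a description, since the TAK values were chosen to be high and a fall toward combo is in part set by that choice in both lines. In MM1R the ratio of the combo mean to the TAK mean ran from 0.526 (SNAP91) to 1.37 (KCNT1) with a median of 0.92, and all 36 ratios lay between 0.5 and 2. In MM1S, over the 33 genes with more than 3 counts in both groups, it ran from 0.133 (KCNT1) to 11.2 (CXCL13) with a median of 0.915. There, 11 ratios were under 0.5 and 4 over 2. The low ones included JPH2 at 0.261, DPYSL4 at 0.34, ANK1 at 0.322, GLB1L2 at 0.367 and MEIS3 at 0.433. The high ones were LGALS9 at 2.2, ADAMTS9 at 2.37, SNAP91 at 2.64 and CXCL13.

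The rule used values that come close together at its limits. Just inside the Veh limit lay WIPF3 and LHFPL1, both at 0.395 CPM, and ANK1 at 0.388 CPM. Just outside it lay MILR1 at 0.404, FCGBP at 0.407 and COL18A1 at 0.415 CPM, leaving aside GLB1L3, which the rule drops by name. GLB1L3 was at 0.687 CPM in MM1S Veh and 0.122 CPM in MM1R Veh. Just inside the TAK limit lay SNAP91 at 1.22, CNR2 at 1.23 and LHFPL1 at 1.25 CPM, and just outside it CYP1A1 at 1.2 (under the limit before rounding), C1orf228 at 1.19 and ETV7 at 1.17 CPM. Of the 36, 13 met both limits in each line on its own and 8 met them in every library. These 8 were ADGRL1, DPYSL4, FAP, FBXO39, JPH2, KNDC1, MEIS3 and SCUBE1.

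Position in the genome was a feature the rule did not use. The coordinates are those of the table (hg19). PPP1R26-AS1, LCN1, PAEP and KCNT1 lie within 330 kb at chr9:138354565-138684993, a stretch with 12 genes of the table. Of its 8 other genes, 1 was called higher in combo than in Dex in MM1S and 5 in MM1R, where 16.6% and 17.4% of all genes were, and 1 (SOHLH1, log2 fold change -1.94, adjusted p = 0.00382) was lower in MM1S. The 5 were PPP1R26 (log2 fold change 1.43), C9orf116 (2.78), MRPS2 (0.90), SOHLH1 (1.65) and LCN9, which had no count in MM1R Dex and stood at 0.229 CPM in combo. LCN1 and PAEP, with their counts mainly in MM1R, sat in a stretch where PPP1R26 and MRPS2 were called higher in MM1R alone. In MM1S PPP1R26 and MRPS2 changed by 0.04 (adjusted p = 0.836) and -0.02 (adjusted p = 0.936). C9orf116 (0.93, adjusted p = 0.0145), PPP1R26-AS1 (1.43) and KCNT1 (2.07) of this stretch were called higher in MM1S too. The line difference in this change was not called for LCN1 or PAEP, with 3 counts or fewer in MM1S Dex and combo. IGSF9B and GLB1L2 lie at either end of 470 kb at chr11:133778520-134248235. Of the 7 other genes there, 4 were higher in MM1S and 6 in MM1R, among them GLB1L3, NCAPD3, VPS26B and ACAD8 in both lines, and 0 were lower. Both stretches were looked at because they hold several of the 36. Other pairs of the 36 were ASAP3 and CNR2, 389 kb apart on chromosome 1, and DPYSL4 and KNDC1, 955 kb apart on chromosome 10. Their stretches were not looked at. E2F2, the upstream neighbour of ASAP3, was lower in combo than in Dex, with log2 fold changes of -1.56 in MM1S and -0.62 in MM1R.

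The nearest gene upstream on the same strand was also read for each of the 36, a look chosen after the values were seen. It lay within 50 kb for 20 genes. That neighbour was called higher in combo than in Dex for 6 genes in MM1S and 7 in MM1R, and lower for 2 and 1, beside 16.6% and 17.4% of all genes higher and 19.3% and 19.4% lower. FBXO39 begins 588 bases beyond the end of XAF1, an interferon-induced gene, which was higher by 4.17 (standard error 0.102) in MM1S and 6.11 (standard error 0.121) in MM1R, at 126 and 129 CPM in combo. GLB1L2 begins 12310 bases beyond GLB1L3, which was higher by 6.42 (standard error 0.209) and 7.77 (standard error 0.212). JPH2 begins 8363 bases beyond OSER1, which was at 94.3 CPM in MM1S combo and 235 CPM in MM1R combo and was higher by 0.80 (standard error 0.0835) and 2.32 (standard error 0.0831). FAP begins 23544 bases beyond IFIH1, the sensor of double-stranded RNA, which was higher by 0.68 and 1.40. Gene counts cannot tell transcription that runs on from such a neighbour from transcription begun at the gene itself, and this was not tested. MEIS3, KNDC1 and DPYSL4 had neighbours under 1 CPM in combo in both lines, namely SLC8A2, ADGRA1 and JAKMIP3. The same held for CMPK2, KCNT1, PAEP and TNFSF14, whose neighbours were RNF144A-AS1, LCN9, OBP2A and C3.

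**Figure D4:**
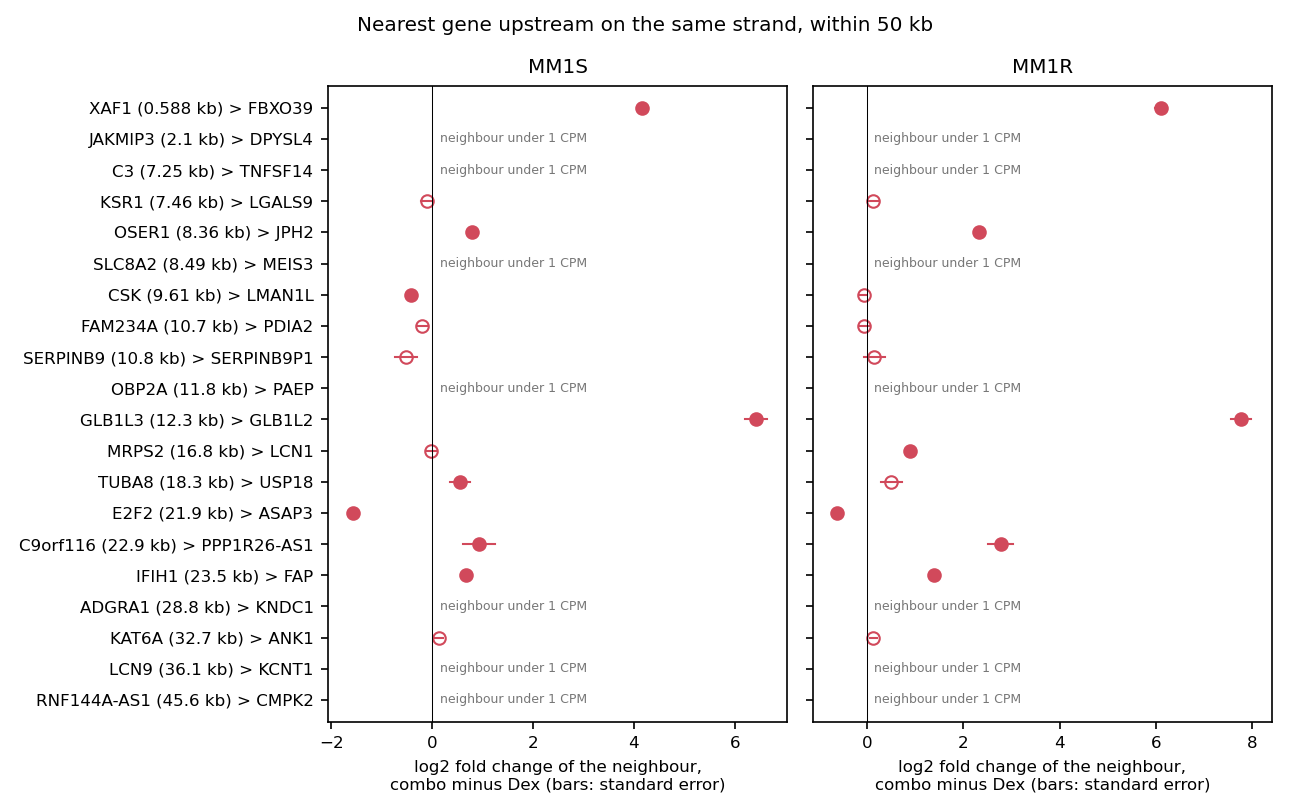
Log2 fold change of combo minus Dex for the nearest upstream gene on the same strand, for the 20 genes with such a neighbour within 50 kb, in MM1S (left) and MM1R (right). Labels give the neighbour, its distance in kb and the gene. Points are fitted values, bars standard errors, filled points passed the threshold, and neighbours under 1 CPM in combo are named without a point. XAF1 and GLB1L3 stand apart from the rest in both lines.

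RefSeq promoter windows (GRCh38.p14, 250 bases before to 50 after a gene's start) were found for 24 of the 36 genes, 38 windows in all. A few motifs were searched on both strands. The core of the interferon-stimulated response element, a pair of GAAA set 2 bases apart, was in a window of LGALS9 and of TNFSF14, and in 4.38% of 27305 genes. The AP-1 motif TGANTCA was in 6 of the 24 (9.37% of genes), the E-box CACGTG in 3 (8.77%) and TATAAA in 3 (14.0%). The CRE TGACGTCA was in 0 (2.25%), as was a full glucocorticoid response element, AGAACA and TGTTC set 3 bases apart, which is in 0.0146% of genes. The window richest in CG held a median of 14 CG pairs over the 24 genes (2 to 42), against 16 over all genes (quartiles 4 and 30).

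These 4 windows are shown because MEIS3 and KNDC1 had 2 counts or fewer in each control group and no expressed upstream neighbour, and because LGALS9 and TNFSF14 carry the interferon core. In MEIS3 (chr19:47422184-47422483, minus strand, 14 CG) and KNDC1 (chr10:133159969-133160268, plus strand, 37 CG), CG pairs are in capitals. In LGALS9 (chr17:27630938-27631237, plus strand) and TNFSF14 (chr19:6670111-6670410, minus strand), the capitals mark the interferon core, which reads on the opposite strand and begins 9 bases before and 29 bases after the start.
MEIS3: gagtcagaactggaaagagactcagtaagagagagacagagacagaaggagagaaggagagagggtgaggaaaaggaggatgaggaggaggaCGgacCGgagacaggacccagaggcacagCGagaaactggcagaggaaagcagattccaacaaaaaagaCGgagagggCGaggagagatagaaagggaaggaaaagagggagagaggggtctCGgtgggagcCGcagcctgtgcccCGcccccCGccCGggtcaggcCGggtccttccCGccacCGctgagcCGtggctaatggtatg
KNDC1: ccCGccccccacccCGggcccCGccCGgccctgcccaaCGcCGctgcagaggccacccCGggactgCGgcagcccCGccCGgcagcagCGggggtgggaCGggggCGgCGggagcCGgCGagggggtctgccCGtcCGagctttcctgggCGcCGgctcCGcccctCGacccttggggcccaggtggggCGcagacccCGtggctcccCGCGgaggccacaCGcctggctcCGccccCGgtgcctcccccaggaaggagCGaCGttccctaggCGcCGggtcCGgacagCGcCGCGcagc
LGALS9: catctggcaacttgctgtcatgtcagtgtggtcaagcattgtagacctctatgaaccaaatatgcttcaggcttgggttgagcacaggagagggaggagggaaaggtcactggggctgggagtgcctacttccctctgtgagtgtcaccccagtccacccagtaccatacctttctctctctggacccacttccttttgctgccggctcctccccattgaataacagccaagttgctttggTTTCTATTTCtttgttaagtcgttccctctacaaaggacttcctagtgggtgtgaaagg
TNFSF14: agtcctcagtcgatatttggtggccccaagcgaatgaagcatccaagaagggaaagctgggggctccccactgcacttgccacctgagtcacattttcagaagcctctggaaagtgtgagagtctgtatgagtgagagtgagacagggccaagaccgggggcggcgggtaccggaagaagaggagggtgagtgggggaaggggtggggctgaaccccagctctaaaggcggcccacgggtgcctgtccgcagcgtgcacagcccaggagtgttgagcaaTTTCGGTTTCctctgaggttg

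The MEIS3 window is rich in purines with CG pairs toward its end, and the KNDC1 window is CG-dense along its whole length. A match is a description of the letters in these windows and no evidence of binding.

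Gene lists of the pathways around the 36 were read in the same fit. Of 50 tested interferon response genes, among them CMPK2, USP18 and LGALS9, 38 were higher and 2 lower in combo than in Dex in MM1S (median log2 fold change 1.05), and 47 were higher and 1 lower in MM1R (median 1.52). Both shares were above the 16.6% and 17.4% of all genes called higher. The list also names IRF9, which is listed at 0 in every library. For a widely expressed gene this is unusual, and nothing is read from it. The interferon genes themselves were at the limit of detection, at 0.399 CPM or less summed over the list, and of 9 tested 0 were called in either direction in either line, by edgeR (0 also at an unadjusted p under 0.05) or by DESeq2. Of 50 tested chemokines and cytokines, CXCL13 among them, 4 were higher and 2 lower in MM1S, and 11 higher and 2 lower in MM1R. Of 73 tested germline and cancer-testis genes, a list that does not hold MAGEB18, 4 were higher and 6 lower in MM1S, and 6 higher and 9 lower in MM1R. Most genes of these lists were near silent. In Veh, 80 of 103 germline genes and 57 of 73 chemokines and cytokines in the table were under 0.4 CPM. Among other genes under that limit, 4.30% were called higher in MM1S and 4.63% in MM1R. Silencing machinery, the chromatin repressors and DNA methylation enzymes, was called in both directions, more often lower than higher, as were all genes tested. Of these 48 genes, 1 was under 0.4 CPM in Veh. The shares over all genes include the 5792 other near-silent genes, of which few were called higher, so they are not a matched background for this list. In MM1S 13 of 48 were higher and 16 lower, beside 16.6% and 19.3% of all genes. In MM1R 10 were higher and 19 lower, beside 17.4% and 19.4% of all genes.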

How the data were processed

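The authors deposited 1 table of raw read counts, whole numbers per gene and library, with a symbol, position and strand for each of 23354 genes in the 16 libraries. Per the labels, 2 libraries make up each of 8 groups of cell line and treatment. The submitters' processing notes name bcl2fastq 2.18.0.12, STAR 2.6.0, HTSeq 0.6.0, edgeR 3.28.1 and the build hg19, and whether counting used strand is not given in the sources used here. Without strand, a gene can take counts from one that overlaps it.

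The members, the gene lists and the role groups were chosen with earlier results of these data known. CPM is the count over the library's total. The counts of the 8 Dex and combo libraries were fitted with edgeR's robust quasi-likelihood model (edgeR 4.0.16, limma 3.58.1, R 4.3.3) with TMM scaling and 1 term per group, leaving 4 residual degrees of freedom. The 5 contrasts were tested over all genes with any count, at a Benjamini-Hochberg adjusted p under 0.05. Fold changes are log2 with the standard error of the fit. Against a group with 3 counts or fewer over its 2 libraries, the size of a change is given as a bound for 0 counts or as a ratio with its exact 95% counting interval for 1 to 3. Where a fitted value for such a group stands beside its edgeR call, it depends on the prior count and is no measure of size. The genes named were those with the 24 highest TAK means, those at the limits or in a list, those with the smallest p in the line difference or the largest in combo against Dex, and neighbours. Others are marked as chosen after their values were seen.

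In simulated counts of MM1S combo against Dex over 18747 genes, the fit called 99% of genes changed 2-fold, 100% of those raised 10-fold from 0.2 CPM, and 10 unchanged genes. The simulation gave every gene the same fixed spread and changed only 100 genes in each of these ways. In the real libraries the spread varied between groups and far more genes were called, so these shares may not hold there. The replicates of a group differed by more than counting noise (chi-square per degree of freedom 2.15 to 22.6), so none was counted as a repeat of the other. Alternatives were RLE scaling, library size only, filterByExpr, all 16 libraries, DESeq2 1.42.0, a replicate block, each library left out in turn, and other limits.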

Additional observations from a re-analysis of the deposited data

Results flagged for a closer look

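The log2 fold change from Dex to combo differed between the lines for 4 of the 36 genes, by the interaction term of the edgeR fit. Each log2 fold change was larger in MM1R. Over all genes tested 7.50% were called in that direction and 3.44% in the other, so the share of the 36 was near the background. For CXCL13 and ADAMTS9 the change started from a higher Dex level in MM1S, at 9.16 and 1.29 CPM against 0.108 and 0.022 CPM in MM1R. Their combo means were also higher in MM1S, at 13.3 and 5.04 CPM against 1.12 and 0.752 CPM. The difference in log2 fold change was 2.62 for PPP1R26-AS1 (standard error 0.528, adjusted p = 2.42e-05) and 2.80 for CXCL13 (standard error 0.517, adjusted p = 3.81e-06), and over the alternatives the adjusted p reached at most 0.0156 and 0.003.

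For ADAMTS9 the difference was 2.86 (standard error 0.932, adjusted p = 0.0256), a value that depends on the prior count since MM1R Dex held 1 count. It passed with all libraries but not under DESeq2 (adjusted p = 0.217), and it was 2.02 without the second MM1R Dex library (adjusted p = 0.3). The first MM1R Dex library held the only Dex count, so no value is given without it (adjusted p = 0.0601). For WIPF3 it was 1.61 (standard error 0.572, adjusted p = 0.0452), with values from 0.83 without the first MM1S Dex library (adjusted p = 0.608) to 2.21 without the second MM1S combo library (adjusted p = 0.0597).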

How the results depend on the processing

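The count of genes higher in combo than in Dex was 28 in MM1S and 35 in MM1R. It was 22 and 32 under DESeq2, and with single libraries left out it ran from 24 to 28 and from 32 to 35. DESeq2 lost KCNT1, ANK1, SERPINB9P1, CXCL13, PDIA2 and LHFPL1 in MM1S and ANK1, OGDHL and CNR2 in MM1R. The line difference went from 4 genes to 2 under DESeq2 (2 to 5 with 1 library left out). There ADAMTS9 lost its call, while WIPF3 was among 23 genes with no DESeq2 adjusted p. The genes lower in MM1R combo went from 8 to 4 under DESeq2, which ended ADGRL1, KCNAB1, OGDHL and IGSF9B and, among those higher, KCNT1 and WIPF3 (5 to 8 lower with 1 library left out), those lower in MM1R Dex from 6 to 3 under DESeq2 (4 to 7), and those higher in MM1R Dex, 5, ran from 3 to 6. In MM1S, values of 3 genes that did not pass the threshold changed sign with 1 library left out. WIPF3 ran from -0.31 to 1.08 (also -0.23), DIO1 from -0.25 to 4.88, the upper value set by the prior count because the Dex library left then held no count, and CNR2 from -0.31 to 1.43 (also -0.06). The cause was not tested in the others. Of the single-gene values, RLE, library size and filterByExpr each ended 1 call of 76, that of the WIPF3 line difference, and the fit of all 16 libraries ended 0.

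With the replicate number as a block within each line, 5 genes were lower in MM1R combo in place of 8, and the other counts of the 36 were unchanged. The numbers were not taken to pair the samples, since the correlation of same-numbered deviations was 0.198 in MM1S and 0.0332 in MM1R.

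The set itself depends on its limits. It held 13 genes at 0.3 and 1.5 CPM, 91 at 0.5 and 1 CPM, 13 with both limits met in each line and 8 with both met in every library, and 37 with TMM library sizes. Of the 36, 16 passed the main limits in Dex and combo, 13 the limits of 0.3 and 1.5 CPM and 24 those of 0.5 and 1 CPM. Over all genes, 3183 were higher in MM1S combo, 2091 under DESeq2 and 2060 at the fewest with 1 library left out. The line difference was called higher for 1439 genes (794 to 1883) and lower for 659 (267 to 1058, and 316 under DESeq2). At 0.4 CPM a gene has under 10 counts in a Veh library, which limits every ratio to a control.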
